A study of Canis lupus familiaris with 13 samples.

Results

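ETV1, ETV4 and ETV5 are the PEA3-group ETS transcription factors, and they were described here together with the related factors ETS1 and ETS2 and with the ERK feedback inhibitors SPRY1, SPRY2, SPRY4, DUSP6 and DUSP4. Members were the probe sets whose platform gene symbol was one of these 10 names. The annotation named 10 probe sets of 7 of the genes, among 42924 probe sets and 15115 named genes on the array. ETV1, ETV5 and DUSP6 each had 2 probe sets, and ETV4, ETS2, SPRY1 and SPRY4 each had 1. ETS1, SPRY2 and DUSP4 were not analysed here. The set was selected on the difference between the outcome groups, in which ETV1 was known to stand out, so that difference is described for the members without a test.

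Fibroblast growth factors (FGFs) bind receptor tyrosine kinases and signal through RAS, RAF, MEK and the kinase ERK. ERK activity raises transcription of the PEA3-group factors, which carry an ETS DNA-binding domain, and of inhibitors that damp the same cascade. Sprouty proteins (SPRY) act between receptor and RAF, and DUSP6 is a cytoplasmic phosphatase that inactivates ERK. PEA3-group factors are fused to EWSR1 in a few human round-cell sarcomas, and ETV1 is a lineage factor of human gastrointestinal stromal tumours.

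RNA came from 13 untreated primary soft tissue sarcomas of dogs, which are malignant tumours of connective tissue, and was read on an Affymetrix canine 3′ array. The metastatic group held 5 tumours (MET1 to MET5) and the non-metastatic group held 8 (NM1 to NM8), which had stayed free of metastasis for at least 1 year. Breed, age, site and histological subtype were not used here, and no label ties samples to individual dogs, so a p-value reflects only how these samples vary. Values are log2 intensities, and array medians lay between 6.71 and 6.94.

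Control probe sets separated the arrays. Poly-A spike-ins, bacterial transcripts added before labelling, gave signal at both ends in all 5 metastatic samples and in NM5 to NM8, gave 3′ signal with little 5′ signal in NM2, and were absent in NM1, NM3 and NM4. Only the 9 samples with signal at both ends held both groups, so the outcome differences of the members and of the genes called were repeated within them, and spike-in status and outcome cannot be told apart in the other samples. In the samples without spike-in, the spike-in probe sets ran from 2.63 to 7.16, so a value of 7.16 or less is not told apart from the signal of a probe set without target. The fibroblast marker COL1A1 was high, with group means of 13.17 in metastatic and 13.16 in non-metastatic tumours, while the epithelial marker EPCAM averaged 4.86 and 4.82. Other markers on those lists did differ between the groups, namely DCN, THY1 and KRT8, whose values are given with the cell type markers.

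Of the PEA3-group factors, ETV1 was higher in every metastatic sample than in any non-metastatic sample. At the probe set of higher mean, ETV1 read 8.0, 7.76, 9.05, 7.94 and 7.79 in MET1 to MET5. The non-metastatic samples ran from 5.21 in NM1 through a median of 6.0 to 6.75 in NM2. The lowest metastatic sample therefore lay 1.01 above the highest non-metastatic one, and MET3 stood above the other metastatic samples. The means were 8.11 ± 0.54 (SD, n = 5) and 6.03 ± 0.45 (SD, n = 8), a difference of 2.08 ± 0.26 (SE), or 4.22-fold. All 8 non-metastatic values lay at or below 7.16, so the size of the difference is not exact. In bulk tumour RNA, a change in the share of cells that express a gene and a change in RNA per cell cannot be told apart.

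The second ETV1 probe set gave the same order of groups at lower intensity. It read 6.85, 6.36, 8.14, 6.49 and 6.5 in MET1 to MET5, against 2.76 to 4.86 with a median of 3.84 in the non-metastatic samples. The gap between the groups was 1.5 and the difference 3.05 ± 0.36 (SE). MET3 was again the highest sample, and it was the one sample above 7.16. Both probe sets were designed to the same transcript sequence, so they are not independent readings of ETV1, and their values correlated at r = 0.97 over the 13 samples and 0.72 over the 8 non-metastatic ones. Within the samples with spike-in at both ends the differences were 2.02 ± 0.27 (SE) and 2.71 ± 0.39 (SE). When each sample was left out in turn, the difference at the first probe set stayed between 1.84 and 2.18.

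ETV4, the founding PEA3 factor, was higher on average in metastatic tumours, with overlapping groups. It read 7.48, 6.72, 7.16, 6.69 and 7.45 in MET1 to MET5 and 6.16 to 6.99 in the non-metastatic samples, with a median of 6.55. MET1, MET3 and MET5 lay above every non-metastatic sample, while MET2 and MET4 lay among them. The difference was 0.54 ± 0.18 (SE) over all samples and 0.43 ± 0.19 (SE) within those with spike-in at both ends. Only MET1 and MET5 exceeded 7.16, and both group means lay below it.

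ETV5 divided the metastatic tumours in the same way. At its probe set of higher mean it read 8.13, 7.34, 8.01, 7.65 and 8.24 in MET1 to MET5. The non-metastatic values ran from 6.60 in NM1 through a median of 7.42 to 7.70 in NM6. MET1, MET3 and MET5 were above all non-metastatic samples, and MET2 was below the non-metastatic median. The means were 7.87 ± 0.37 (SD, n = 5) and 7.29 ± 0.36 (SD, n = 8), a difference of 0.58 ± 0.20 (SE), or 0.37 ± 0.19 (SE) within the samples with spike-in at both ends. The second probe set differed by 0.91 ± 0.28 (SE) and by 0.62 ± 0.29 (SE) there, and it tracked the first at r = 0.98 over the 13 samples. The same 3 metastatic samples therefore held the highest ETV4 and ETV5, whereas ETV1 was raised in all 5.

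**Figure D1:**
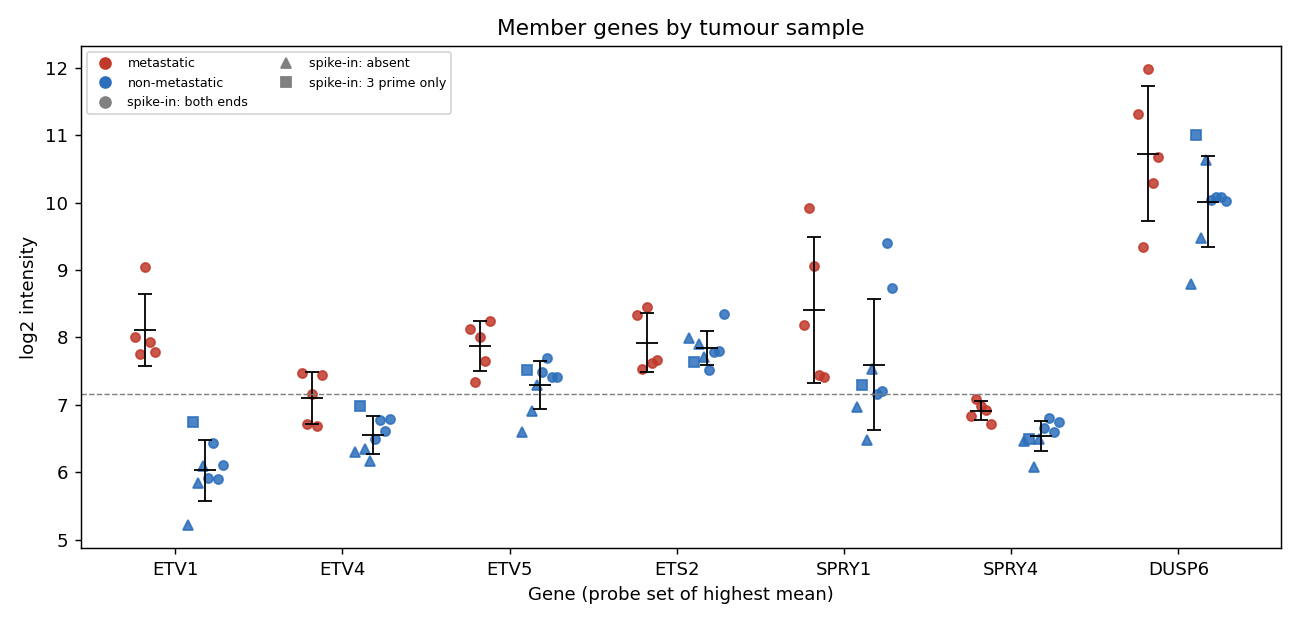
Log2 intensity of each measured gene at its probe set of highest mean, by tumour sample; red is metastatic, blue non-metastatic, marker shape gives spike-in status, black bars are means with SD, and the dashed line is the 7.16 that probe sets without target reached. The groups are apart for ETV1, with metastatic values from 7.76 and non-metastatic values up to 6.75, and overlap for the other 6 genes.

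ETS2, an ETS factor phosphorylated by ERK and outside the PEA3 group, had the smallest difference between the groups. It read 8.33, 7.53, 8.46, 7.62 and 7.67 in MET1 to MET5 and 7.52 to 8.35 in the non-metastatic samples, with a median of 7.80. MET3 was the only metastatic sample above all non-metastatic ones, and 7 of the 8 non-metastatic values fell inside the metastatic range. The difference was 0.08 ± 0.19 (SE) over all samples and 0.06 ± 0.25 (SE) within those with spike-in at both ends. It changed sign without MET1 and without MET3, reaching -0.05.

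DUSP6, the ERK phosphatase, was spread widely among the metastatic tumours. At its probe set of higher mean it read 11.32, 9.35, 11.99, 10.30 and 10.68 in MET1 to MET5. The non-metastatic samples ran from 8.80 in NM1 through a median of 10.06 to 11.01 in NM2. MET1 and MET3 lay above every non-metastatic sample, but MET2 lay below all of them except NM1. The difference was 0.71 ± 0.41 (SE) over all samples and 0.67 ± 0.45 (SE) within those with spike-in at both ends, smaller than the SD of 1.00 among the metastatic samples. NM5 to NM8 were close together, at 10.04, 10.08, 10.09 and 10.02.

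The second DUSP6 probe set separated 4 metastatic samples from all non-metastatic ones. It read 10.12, 7.96, 11.06, 8.90 and 9.23 in MET1 to MET5, against 6.45 to 8.85 with a median of 8.60. The difference was 1.25 ± 0.50 (SE) over all samples and 0.69 ± 0.53 (SE) within those with spike-in at both ends. The probe sets correlated at r = 0.88 over the 13 samples and 0.69 over the non-metastatic ones. They parted most visibly at NM2 and NM4, which were the highest non-metastatic samples at the first probe set and lay below NM5 to NM8 at the second.

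SPRY1, a sprouty inhibitor, was high in some tumours of each group. It read 8.19, 9.92, 9.06, 7.45 and 7.42 in MET1 to MET5. The non-metastatic values were 6.97, 7.29, 6.48, 7.53, 7.16, 7.21, 9.40 and 8.73 in NM1 to NM8. MET2, MET3 and MET1 were high among metastatic and NM7 and NM8 among non-metastatic tumours. The difference was 0.81 ± 0.51 (SE) over all samples and 0.28 ± 0.64 (SE) within those with spike-in at both ends, both smaller than the SD of 1.08 among metastatic and 0.97 among non-metastatic samples. MET2 held the highest SPRY1 of all samples and the lowest DUSP6 of the metastatic ones.

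SPRY4 varied little and read low throughout. It was 6.84, 7.08, 6.99, 6.93 and 6.72 in MET1 to MET5 and ran from 6.07 in NM3 through a median of 6.55 to 6.81 in NM6. Of the metastatic samples, 4 exceeded every non-metastatic one, by narrow margins. The difference was 0.37 ± 0.13 (SE) over all samples and 0.21 ± 0.10 (SE) within those with spike-in at both ends. No sample exceeded 7.16, so SPRY4 was not told apart from probe sets without target in any tumour.

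**Figure D2:**
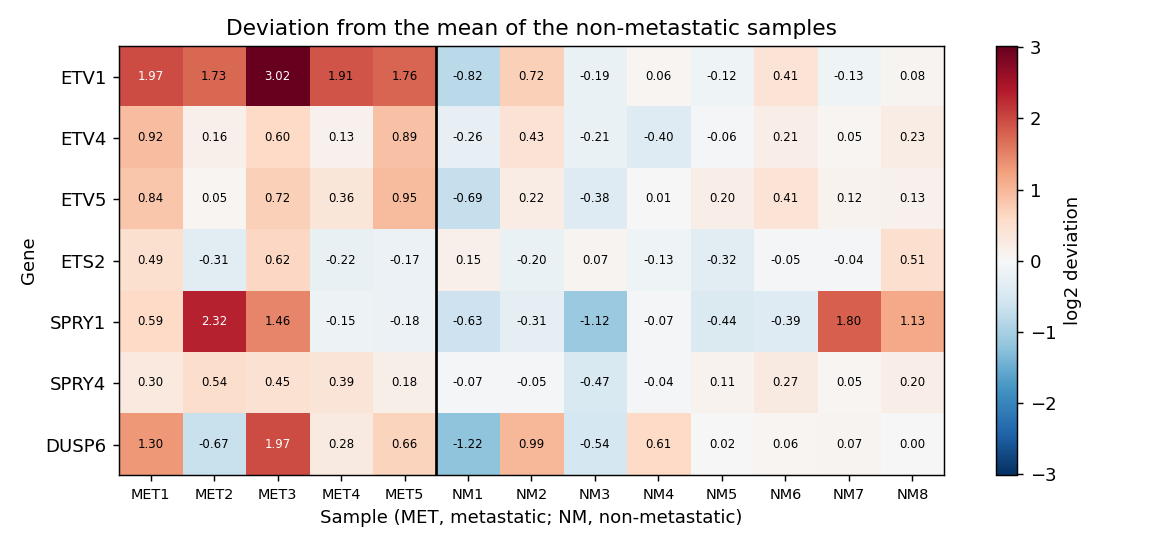
Deviation of each gene from its mean over the non-metastatic samples (log2, colour and printed value), with samples in columns and the 7 measured genes in rows. MET1, MET3 and NM8 lie above that mean for all 7 genes, MET2, MET4, MET5, NM6 and NM7 for 5, and NM1 and NM3 for 1, and MET2 pairs the highest SPRY1 deviation (2.32) with a DUSP6 deviation of -0.67.

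All 10 member probe sets had higher means in metastatic tumours, as did 55.1% of all probe sets. The median difference at 1 probe set per gene was 0.58 over the 7 members and 0.05 over the 15115 named genes, and it was 0.37 and 0.03 within the samples with spike-in at both ends. The whole-table fit called 2 member probe sets, those of ETV1, where 4.90% of all probe sets were called and 1.56% were called higher. The groups did not overlap, with metastatic samples higher, for the same 2 member probe sets and for 1.18% of all probe sets. Within the samples with spike-in at both ends the ETV1 probe sets were also the 2 called, where 0.578% of all were called higher. The members were proposed from this contrast, so these counts describe them and nothing is read from them. Of all calls 31.8% were higher in metastatic tumours, and 45.3% when each array was centred on its 75th percentile.

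Among non-metastatic tumours alone, 9 of the 10 member probe sets had lower means in the arrays without spike-in, as did 57.9% of all probe sets. NM5 to NM8 minus NM1, NM3 and NM4 was 0.57 ± 0.18 (SE) for ETV5 (limma adjusted p = 0.0576), 0.40 ± 0.12 (SE) for ETV4 (limma adjusted p = 0.0544) and 1.30 ± 0.41 (SE) for the second DUSP6 probe set (limma adjusted p = 0.059). ETV1 differed by 0.38 ± 0.23 (SE) at its first probe set (limma adjusted p = 0.278) and by 0.98 ± 0.32 (SE) at its second (limma adjusted p = 0.0639). ETS2 differed by -0.005 ± 0.20 (SE, limma adjusted p = 0.988). In limma 0 of the 10 member probe sets passed, where 21.7% of all probe sets did, and 6 had an unadjusted p under 0.05, as had 37.3% of all. Of the probe sets that passed, 6798 were higher and 2513 lower in the samples with spike-in. After quantile normalization that split was 4066 and 3844.

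The choice of non-metastatic samples therefore moved the differences between outcome groups. Against NM1, NM3 and NM4 the metastatic mean was 0.94 higher for ETV5, 0.83 for ETV4, 1.41 for SPRY1 and 1.99 for the second DUSP6 probe set. Against NM5 to NM8 the same differences were 0.37, 0.43, 0.28 and 0.69. For ETV1 they were 2.39 and 2.02 at the first probe set and 3.69 and 2.71 at the second. For the first DUSP6 probe set they were 1.09 and 0.67. The ACTB 3′ minus 5′ value, which rises with RNA degradation, was 0.81 to 1.21 in NM1, NM3 and NM4, 2.85 in NM2 and 1.33 to 2.04 in NM5 to NM8. In the metastatic samples it was 1.53 to 2.36, above NM1, NM3 and NM4 in all 5, so it moved with outcome as well as with spike-in status. Its part in these values was not tested apart from spike-in status. With it as a covariate the difference of ETV1 was 1.96 and that of ETV5 was 0.49.

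**Figure D3:**
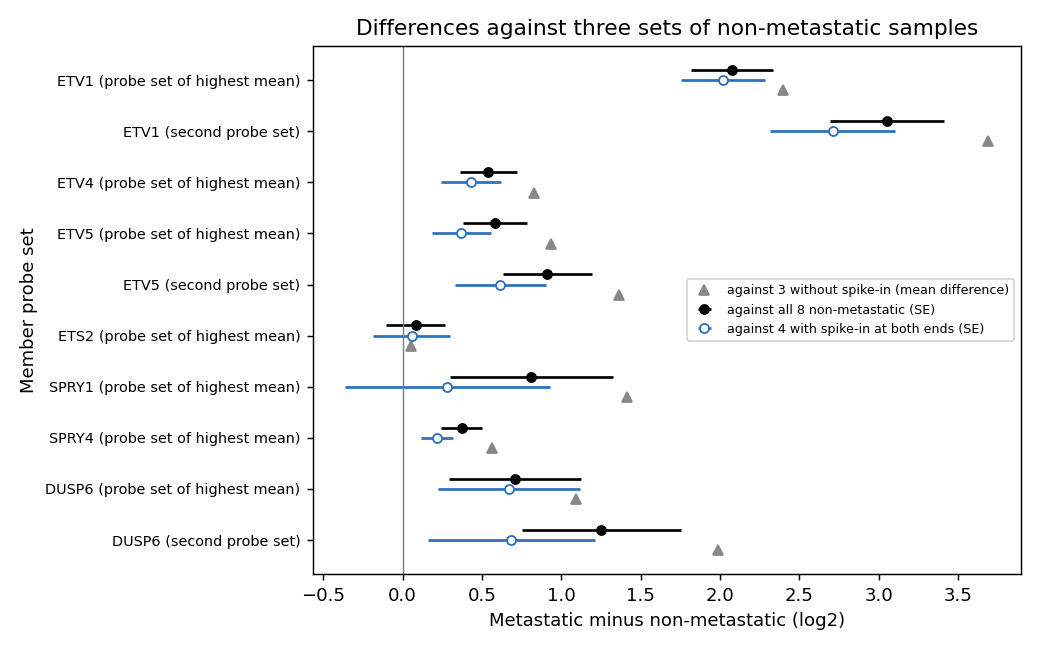
Metastatic minus non-metastatic log2 difference of the 10 member probe sets against all 8 non-metastatic samples (black, SE), the 4 with spike-in at both ends (open blue, SE) and the 3 without spike-in (grey triangles, mean difference only). The triangle lies to the right of the other symbols for every probe set except that of ETS2, and ETV1 lies farthest from 0 in all 3.

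DUSP6 transcript is often read as a marker of ERK activity, and its covariation with the other members was examined inside the non-metastatic group, which does not use the outcome contrast. Over the 8 samples ETV1 correlated with DUSP6 at r = 0.88 (permutation p = 0.00843, adjusted p = 0.0506 over 6 genes) and rho = 0.69 (permutation p = 0.0694, adjusted p = 0.249). ETV5 correlated at r = 0.77 (permutation p = 0.0254, adjusted p = 0.0763) and rho = 0.55 (permutation p = 0.171, adjusted p = 0.256). No gene passed after adjustment at these values, although ETV1 (r = 0.88) and ETV5 (r = 0.83) did after quantile normalization (permutation, adjusted p = 0.0342 for both). With probe sets of a gene averaged, DUSP6 included, r was 0.77 for ETV1 and 0.92 for ETV5 (permutation, adjusted p = 0.0638 for both), and neither passed. The other r use the first DUSP6 probe set, where NM2 was the highest non-metastatic sample, which it was not at the second (8.14). Without NM1 and NM2, the samples farthest from the DUSP6 median, r was 0.37 for ETV1 and 0.48 for ETV5, over a narrower range of DUSP6. Both stayed positive without passing (permutation, adjusted p = 0.672 for both). The 6 samples left cannot show whether either relation depends on that pair. The ACTB 3′ minus 5′ value, highest in NM2 (2.85), correlated over the same 8 samples with ETV1 (r = 0.82), ETV4 (0.78) and ETV5 (0.73). Its r was 0.43 with SPRY4, -0.004 with SPRY1 and -0.51 with ETS2. The part of RNA degradation in the relations with DUSP6 was not tested.

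The remaining 4 members did not pass in this group either, which at 8 samples does not show that they vary apart from DUSP6. ETV4 had r = 0.47 (permutation p = 0.239, adjusted p = 0.419, rho = 0.33, permutation p = 0.428), and SPRY4 had r = 0.27 (permutation p = 0.507, adjusted p = 0.563, rho = 0.21, permutation p = 0.619). SPRY1 had r = 0.25 (permutation p = 0.563, adjusted p = 0.563, rho = 0.60, permutation p = 0.132), and ETS2 had r = -0.43 (permutation p = 0.279, adjusted p = 0.419, rho = -0.67, permutation p = 0.0831). Without NM1 and NM2 these r were -0.24, 0.51, 0.31 and -0.26. With probe sets of a gene averaged, r was 0.48 for ETV4, 0.50 for SPRY4, 0.46 for SPRY1 and -0.32 for ETS2, and none of these passed. No set of samples of 1 spike-in status held 6 non-metastatic samples. Centred within spike-in status over 7 samples, which keeps NM1 and leaves out NM2, r with DUSP6 was 0.91 for ETV5, 0.77 for ETV1, 0.18 for SPRY4, 0.24 for SPRY1, -0.34 for ETS2 and -0.41 for ETV4 (permutation within status, adjusted p from 0.208 to 0.771).

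**Figure D4:**
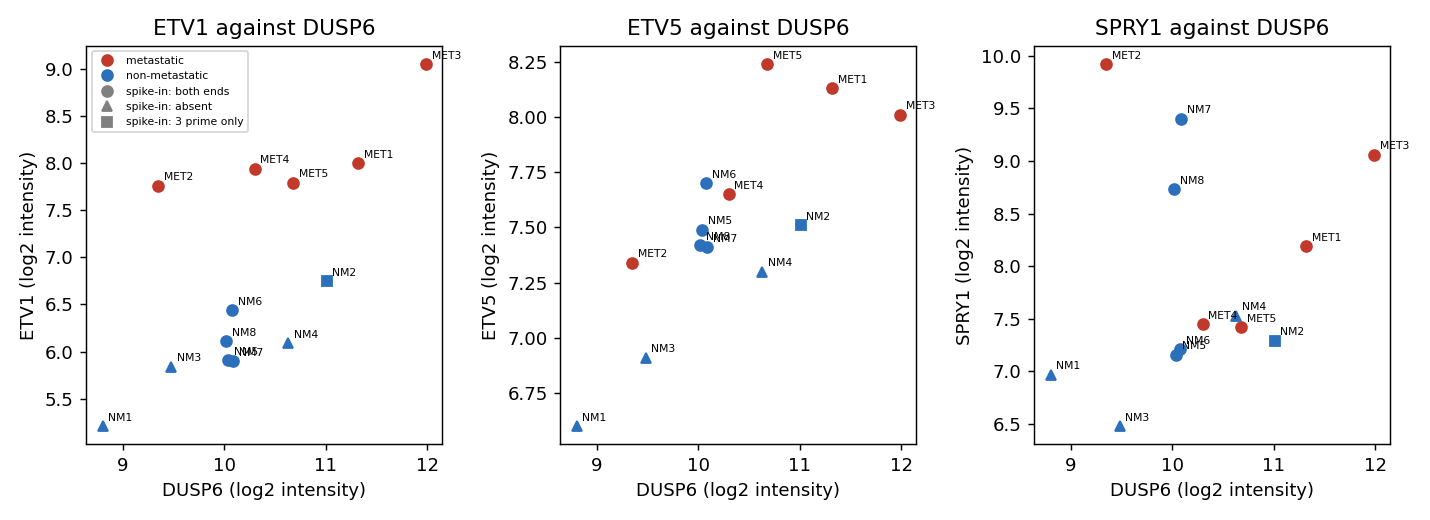
ETV1, ETV5 and SPRY1 against DUSP6 (log2 intensities at the probe set of highest mean) in the 13 samples, with colours and marker shapes as for the plot of values by sample. NM1 and NM2 mark the ends of the non-metastatic DUSP6 range (8.80 and 11.01), and all 5 metastatic samples lie above all 8 non-metastatic ones for ETV1.

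The genes most like the members over the 13 samples were sought among 9300 named genes of at least median level. SEPTIN6 (r = 0.94), SOCS5 (0.91), PTPRG (0.89), SOCS2 (0.89) and ART5 (0.89) were closest to ETV1. For ETV5 they were UACA (r = 0.94), PPM1D (0.92), PPP3CC (0.91), STRBP (0.91) and REST (0.90). For DUSP6 they were SLC6A6 (r = 0.85), ERRFI1 (0.85), MAOA (0.85), MAN2A1 (0.84) and PBXIP1 (0.84). Measured on deviations from group means, r ranged from 0.47 for SOCS5 to 0.76 for SEPTIN6 with ETV1, from 0.83 to 0.89 with ETV5 and from 0.80 to 0.85 with DUSP6. The samples share their spike-in status in all of these correlations, which are given as a description.

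ERRFI1, a feedback inhibitor of the EGF receptor, read 9.96, 7.07, 11.75, 11.32 and 8.95 in MET1 to MET5, and 7.18 in NM1 and 10.86 in NM2. Like DUSP6 at its first probe set it was high in MET3 and NM2 and low in MET2 and NM1, as its choice by correlation with DUSP6 implies. MET4 was second highest for ERRFI1, but for DUSP6 (10.30) it lay below MET1, MET5, NM2 and NM4. Its group difference was 0.67 ± 0.73 (SE, limma adjusted p = 0.590).

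Of the other genes of the cascade, 123 were measured at 1 probe set each, and 3 rose and 3 fell in metastatic tumours (limma, adjusted p under 0.05). Each count is 2.44% of the genes, where 1.65% of all named genes were called higher and 3.70% lower. The median difference of the 123 was 0.10, against 0.05 over all named genes. The genes called were few and their number depended on single samples, as did that over the whole table. Without NM2, 7 rose and 6 fell, and without MET1 or without NM8, 0 did either way. Of all 42924 probe sets 669 were called higher and 1435 lower. These counts were 1731 and 2747 without NM2, 234 and 622 without MET1, and 377 and 841 without NM8. Within the samples with spike-in at both ends 1 rose and 1 fell, namely SOS2 and ELF1, where 0.576% of all named genes were called higher and 2.24% lower.

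Among receptors and adaptors, FGFR2 fell and the RAS exchange factor SOS2 rose, 2 of 15 genes. FGFR2, a receptor for FGFs, read 9.26, 5.26, 7.54, 6.75 and 10.31 in MET1 to MET5. In the non-metastatic samples it was 7.87 in NM2 and 10.92 to 12.28 in the others. Every metastatic sample was therefore below those 7, while NM2 lay among the metastatic samples. FGFR2 fell by 3.32 ± 0.83 (SE, limma adjusted p = 0.0359), and all 3 of its probe sets passed, with differences from -3.32 to -1.92. Within the samples with spike-in at both ends it differed by -3.51 (limma adjusted p = 0.0742), and its call was lost in 10 of the 13 fits without 1 sample, at -3.94 to -2.68, kept without MET5, NM2 or NM7. SOS2 rose by 0.46 ± 0.10 (SE, limma adjusted p = 0.0254) with no overlap between groups, from a mean of 5.95 to one of 6.41 that was not above 7.16. Its call was lost without MET1, MET2, MET4 or NM8, at differences from 0.42 to 0.49 over the 13 fits. FGFR1 averaged 7.20 ± 0.38 (SD, n = 5) in metastatic and 8.06 ± 0.91 (SD, n = 8) in non-metastatic tumours, a difference of -0.86 ± 0.39 (SE, limma adjusted p = 0.200).

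No FGF ligand passed among 22 (limma), and 3 had an unadjusted p under 0.05. Nothing is read from unadjusted counts here or in the lists below, because such p were frequent over all probe sets. FGFR1, for example, had an unadjusted limma p of 0.0448 and an adjusted p of 0.200. FGF2, a ligand of fibroblasts and vessels, differed by 1.40 ± 0.54 (SE, limma adjusted p = 0.140). It was highest in MET2 (8.77) and MET4 (8.28), and next in NM7 (7.49), and 10 of the 13 samples were not above 7.16. FGF1 differed by 1.13 ± 0.41 (SE, limma adjusted p = 0.119) and by 0.38 within the samples with spike-in at both ends. In the gene order of the dog RefSeq assembly UU_Cfam_GSD_1.0, FGF2 is the third coding gene beside SPRY1 and FGF1 the second beside SPRY4. SPRY1 and FGF2 had MET2 as their highest sample, as did SPRY4 and FGF1. SPRY4 was not above 7.16 in any sample, and FGF1 read 7.86 in MET2 and 7.68 in NM6. The coding genes measured within 3 places of ETV1 were SCIN, DGKB and AGMO, which differed by 0.29 (limma adjusted p = 0.707), 0.54 (0.217) and -0.04 (0.902).

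Of the 22 genes of the RAS to ERK cascade, 1 rose and 0 fell (limma), with 3 at an unadjusted p under 0.05. RRAS, named after its values were seen, did not pass at the probe set used (-0.68, limma adjusted p = 0.124). Its second probe set passed (-1.19). RASA2, a GTPase-activating protein that switches RAS off, rose by 0.65 ± 0.16 (SE, limma adjusted p = 0.0352), from 7.11 ± 0.30 (SD, n = 8) to 7.76 ± 0.22 (SD, n = 5). The highest non-metastatic sample, at 7.41, lay 0.04 below the lowest metastatic one. Its call was lost in 8 of the 13 fits without 1 sample (0.57 to 0.72) and within the samples with spike-in at both ends (0.49, limma adjusted p = 0.090). It was kept without MET5, NM2, NM5, NM6 or NM7.

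Of 16 other feedback inhibitors 0 passed in limma, and 3 had an unadjusted p under 0.05. SPRED1 and SPRED2, sprouty-related inhibitors of RAF activation, differed by 0.14 ± 0.16 and 0.07 ± 0.13 (SE, limma adjusted p = 0.603 and 0.768). DUSP10 and IL17RD lay at the ends of this list, at 1.18 (limma adjusted p = 0.0843) and -1.33 (limma adjusted p = 0.127), and were named after their values were seen.

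Among 20 other transcripts induced by ERK, 1 rose and 1 fell. PHLDA1, a pleckstrin homology-like protein that follows ERK output, read 7.73, 7.15, 8.09, 8.59 and 6.86 in MET1 to MET5 and 5.73 to 6.59 in the non-metastatic samples other than NM2, which read 7.52. PHLDA1 rose by 1.33 ± 0.32 (SE, limma adjusted p = 0.0306), and by 1.28 within the samples with spike-in at both ends, where it did not pass (limma adjusted p = 0.0732). Its call was lost in 7 of the 13 fits (1.11 to 1.54), without MET1, MET3, MET4, NM1, NM3, NM4 or NM8.

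CCND1, the cyclin that carries cells through G1, went the other way. It read 8.87, 8.65, 9.04, 9.95 and 9.39 in MET1 to MET5 and 9.52 to 10.77 in the non-metastatic samples, so MET4 overlapped them. It fell by 0.96 ± 0.26 (SE, limma adjusted p = 0.0476) and differed by -0.71 within the samples with spike-in at both ends (limma adjusted p = 0.190). Its call was kept without MET4, NM2, NM6 or NM7 and lost in the other 9 fits, at differences between -1.15 and -0.82 over the 13. Its second probe set differed by -1.34 without passing. MYC differed by -0.44 ± 0.23 (SE, limma adjusted p = 0.256) and the immediate early gene EGR1 by -0.20 ± 0.65 (SE, limma adjusted p = 0.866). On average ETV1 and PHLDA1 were thus higher and CCND1 lower in metastatic tumours, with most PHLDA1 values at or below 7.16.

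Of 20 other ETS factors 0 rose and 1 fell. ELF1, an ETS factor of blood and endothelial cells, read 8.61, 7.41, 8.71, 8.82 and 8.01 in MET1 to MET5, and 8.33 in NM2 against 9.37 to 9.99 in the other non-metastatic samples. It fell by 1.14 ± 0.28 (SE, limma adjusted p = 0.034), and by 1.23 within the samples with spike-in at both ends (limma adjusted p = 0.0499). Its call was kept without MET3, MET4 or NM2 and lost in the other 10 fits, at -1.30 to -0.92 over the 13. Its second probe set differed by -0.92 without passing.

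Of 8 genes that repress or degrade PEA3-group factors 0 passed in limma, and 2 had an unadjusted p under 0.05. CIC, the repressor that ERK signalling relieves, differed by 0.25 ± 0.20 (SE, limma adjusted p = 0.450), and by -0.04 within the samples with spike-in at both ends. COP1, a ubiquitin ligase subunit for ETV1, and the CIC partner ATXN1 differed by 0.38 and 0.43 (limma adjusted p = 0.0790 and 0.104), COP1 with groups that did not overlap, as for 2.63% of all probe sets, and were named after their values were seen. ATXN1 was not above 7.16 in any sample.

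**Figure D5:**
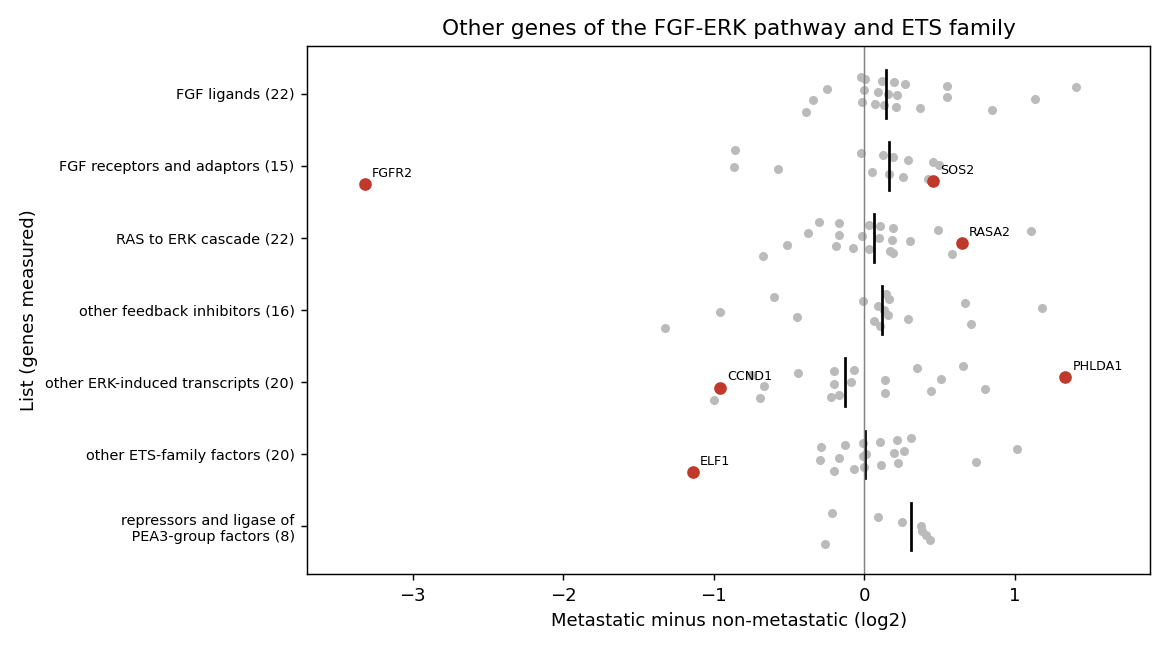
Metastatic minus non-metastatic log2 difference of the 123 other pathway genes at 1 probe set each, by list; red points passed the limma threshold and are named, grey points did not, and black bars are list medians. The medians lie between -0.13 and 0.31, and FGFR2 (-3.32) lies farthest from 0.

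Over 73 measured markers of 10 cell types, 3 (4.11%) passed in limma, all lower in metastatic tumours, where 3.70% of all named genes were called lower. The fibroblast marker DCN fell by 1.29 ± 0.20 (SE, limma adjusted p = 0.00429), from a mean of 13.66 to 12.37, and by 1.35 within the samples with spike-in at both ends (limma adjusted p = 0.0346). THY1, also a fibroblast marker, fell by 1.41 ± 0.37 (SE, limma adjusted p = 0.0425) and did not pass within those samples (-1.28, limma adjusted p = 0.133). The 9 fibroblast markers went both ways, with differences from -1.41 to 1.82, a median of -0.08 and 3 above 0. The epithelial keratin KRT8 fell by 3.34 ± 0.89 (SE, limma adjusted p = 0.0468), with both means, 1.55 and 4.88, below 7.16. The calls of THY1 and KRT8 were each lost in 10 of the 13 fits without 1 sample, at -1.64 to -1.22 and -3.59 to -2.77, kept without MET3, NM2 or NM7 for THY1 and without NM2, NM6 or NM8 for KRT8. In the other 8 lists 0 passed and 6 genes had an unadjusted p under 0.05. The summed level of 10 endothelial markers ran from 11.51 to 12.39 in metastatic and 11.09 to 13.44 in non-metastatic samples, and that of 8 macrophage markers from 10.52 to 12.71 and 11.01 to 12.81. The 9 T and NK cell markers summed to 10.36 to 10.74 and 10.16 to 10.64. KIT, which marks interstitial cells of Cajal with ANO1, differed by 0.05 ± 0.14 (SE, limma adjusted p = 0.829), and ANO1 was not above 7.16 in any sample. Summed levels ran from 9.64 to 11.38 and 10.16 to 11.48 for 6 Schwann cell markers, and from 11.98 to 13.94 and 11.19 to 13.78 for 8 of smooth muscle and pericytes. They ran from 9.82 to 12.48 and 9.31 to 10.95 for 7 of skeletal muscle, from 9.47 to 10.09 and 9.32 to 10.03 for 6 of B and plasma cells, and from 15.23 to 16.01 and 15.62 to 16.31 for 9 of fibroblasts. They ran from 9.04 to 11.94 and 9.14 to 11.58 for 4 of interstitial cells of Cajal, and from 7.60 to 8.44 and 7.66 to 9.36 for 6 of epithelium. The part of cell composition in the member values was not tested.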

How the data were processed

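The authors deposited 1 table of log2 intensities per probe set for 13 arrays. The log2 scale was inferred from the values (0 to 14.33), and which software, background correction or normalization made it is not given in the sources used here. Per the labels' protocols, column-purified total RNA was biotin-labelled by 1-cycle 3′ in vitro transcription. Values were used as deposited, and 111 control probe sets were left out of the tests. A single symbol was annotated for 29264 probe sets, which were named; 439 had several symbols and 13332 had none.

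Groups came from sample titles. All 42924 probe sets were fitted with limma 3.58.1 (R 4.3.3; group as the only term, two-sided, Benjamini-Hochberg, threshold 0.05), also tested on simulated data. Lists used each gene's probe set of highest mean, and summed marker levels are log2 of summed linear intensities. Correlations used all 40320 pairings of 8 samples (two-sided; scipy 1.17.1). Spike-in was called absent where the 3′ mean was 6 or less, and one-ended where 3′ exceeded 5′ by over 2. Named genes were the members, up to 4 passing genes per pathway list, 10 fixed names and the 5 most correlated genes. Members and lists were chosen with earlier results of these data known. Alternatives were quantile and 75th-percentile scaling, a filter on dim probe sets, blocks, a covariate, sample subsets and averaged probe sets. The number of arrays limits the precision.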

Additional observations from a re-analysis of the deposited data

Results flagged for a closer look

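Dixon's criterion was applied to 48 sets of values (a gene's probe set in 1 group). In 7 of them 1 sample lay apart from the others of its group. Chance gives about 1 in 20 for independent sets, but these share samples, some share a gene, and some genes were named for their values. Nothing is read from the count. MET3 stood apart at both ETV1 probe sets, at 9.05 against 7.76 to 8.0 and at 8.14 against 6.36 to 6.85. NM3 was low for SPRY4, at 6.07 against 6.47 to 6.81. NM2, the sample with spike-in signal at the 3′ end only, was low for ELF1 (8.33 against 9.37 to 9.99) and for FGFR2 (7.87 against 10.92 to 12.28). MET2 was low for EGR1, at 5.22 against 7.52 to 8.45, and MET5 was high for MYC, at 10.09 against 8.69 to 8.98.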

How the results depend on the processing

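The differences of ETV1, ETV4, ETV5, SPRY1, SPRY4 and DUSP6 stayed above 0 under every alternative run, and that of ETS2 (0.08) was below 0 in 2 of 22, at the lowest -0.05. Without 1 sample each, they ranged from 1.84 to 2.18 for ETV1, 0.45 to 0.64 for ETV4, 0.48 to 0.71 for ETV5, -0.05 to 0.18 for ETS2, 0.43 to 1.07 for SPRY1, 0.30 to 0.42 for SPRY4 and 0.39 to 1.05 for DUSP6. Averaging both probe sets gave 2.57 for ETV1. The r of ETV4 with DUSP6 (0.47) turned to -0.41 when centred within spike-in status and to -0.24 without NM1 and NM2. Those of ETV1 and ETV5 passed after quantile normalization (0.88 and 0.83) and did not pass with probe sets averaged (0.77 and 0.92). The cause was not tested.

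Of all probe sets 669 were called higher and 1435 lower. These counts were 248 and 944 within the samples with spike-in at both ends, 46 and 161 without NM1, NM3 and NM4 (chosen after seeing the data), 400 higher with spike-in status as a block, and 431 higher after the filter on dim probe sets, which tests fewer. Without 1 sample they ran from 234 to 1731 and from 622 to 2747, both highest without NM2. Pathway genes called (3 and 3) were 1 and 1 with the ACTB covariate and within the samples with spike-in at both ends, 1 higher after the filter, 0 and 0 without NM1, NM3 and NM4, and 0 to 7 and 0 to 6 without 1 sample. Between non-metastatic samples with and without spike-in, 6798 and 2513 calls became 4066 and 3844 after quantile normalization, and 4134 to 5816 and 1183 to 2139 without 1 sample. With the number in the title as a replicate block, 255 and 478 probe sets and 1 and 3 pathway genes were called, and ETV1 differed by 2.15. Whether equal numbers stand for more than a label cannot be settled from these values. Deviations of samples with equal numbers correlated at -0.01 to 0.08, and 1 of 5 correlated best with its own number. Background correction and scan batch could not be run on this table. Levels at or below 7.16, as for SPRY4, limit what these values can show.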
